A study of Mus musculus with 5 samples.

Results

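The 7 mouse genes described here, Kdm2a, Kdm2b, Kdm5a, Kdm5b, Kdm5c, Kdm6a and Kdm6b, encode demethylases that act on H3K4, H3K27 or H3K36, which are lysines in the tail of histone H3. They were taken by name from 21779 protein-coding genes, and every ZFP541 peak overlapping one of the gene bodies or the 10 kb on either side was collected. ZFP541 is a germ-cell protein with zinc fingers, and its sites were mapped by ChIP-seq, in which an antibody enriches cross-linked chromatin and the recovered DNA is sequenced. The cells were pachytene and diplotene spermatocytes, enriched by STA-PUT sedimentation from testes of adult C57BL/6 mice. The ZFP541 antibody was used on Zfp541-/- cells (1 library) and on wild-type (WT) cells (2 replicate libraries), and 2 input libraries of WT cells were not analysed here. The labels do not say whether the replicates came from separate animals, which part of Zfp541 the knockout allele removes, or how many animals were pooled, and peak lists hold no marker expression against which the enriched cell type could be checked.

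Lysine methylation marks the state of a gene, and JmjC-domain enzymes take these marks off again. Trimethylation of H3K4 lies at active promoters, that of H3K27 is the mark of Polycomb repression, and methylation of H3K36 lies over transcribed and intergenic chromatin. KDM2A and KDM2B remove methyl groups from H3K36 and bind unmethylated CpG islands through a CXXC domain, the KDM5 enzymes remove those of H3K4, and KDM6A (UTX) and KDM6B (JMJD3) remove those of H3K27. Kdm5c and Kdm6a lie on the X chromosome, which is transcriptionally silenced as part of the sex body in pachytene spermatocytes.

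The deposited lists held 256 peaks in the knockout library and 8236 and 10371 peaks in WT replicates 1 and 2. At the gene altered in the knockout, Zfp541, the knockout list had no peak within 1 kb of either gene end, and the WT replicates had folds of 18.6 and 22.2 there. The knockout list began at a −log10 p of 4.47, a stricter value than the 2.71 and 2.54 at which the WT lists began. Fold enrichment is the authors' own ratio of signal at the summit to the caller's background, given per peak, and the read depth behind it is unknown from these lists. With 1 knockout library and no read counts, no test between the genotypes was possible, and the values below are descriptions of single libraries.

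No knockout peak was found at any of the 7 genes. A peak was found at 5 genes in WT replicate 1 and at 4 in WT replicate 2, which were Kdm2a, Kdm2b, Kdm5b and Kdm6b in both replicates and Kdm5a in replicate 1. In the same window, 0.34% of all protein-coding genes had a knockout peak, 33.8% a peak in WT replicate 1 and 39.4% a peak in WT replicate 2, so nothing about these 7 genes can be read from the absence of knockout peaks there. Peaks numbered 12 in replicate 1 and 16 in replicate 2, and 9 and 10 of them had a q-value of at most 0.05. At least 1 bp was shared with a peak of the other replicate by 9 of the 12 and 8 of the 16. Their median folds were 4.64 and 3.44, and 7 of the 12 and 4 of the 16 lay above the median fold of their whole list, which was 4.29 in replicate 1 and 4.03 in replicate 2.

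**Figure D1:**
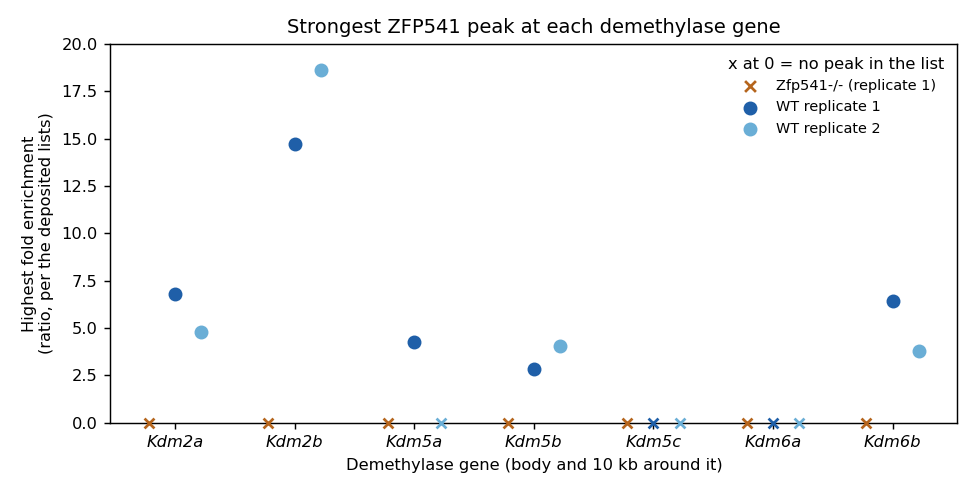
Highest fold enrichment (ratio, vertical axis from 0) at each of the 7 genes and the 10 kb around them, with 1 point per library and a cross at 0 where the list has no peak. Kdm2b stands highest with 14.7 and 18.6 in the WT replicates, the other WT points lie between 2.83 and 6.79, and all knockout crosses are at 0.

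Overlapping peaks of both WT replicates were joined into shared regions, and those with a knockout peak were left out, which gave 5325 regions in the genome. Of the 7 genes, 4 had a shared region in the window (Kdm2a, Kdm2b, Kdm5b and Kdm6b), against 29.3% of all protein-coding genes. The 7 genes are long, with a median of 80.5 kb against 17.2 kb for all protein-coding genes, and a longer window holds a peak more often. Among genes of 21.9 to 119 kb, the range of the 7, the share was 36.5%. Shared regions were also counted within 1 kb of a listed start of transcription or, where none was listed, of either gene end. They were found at 3 genes, Kdm2a, Kdm2b and Kdm5b, against 21.4% of all protein-coding genes. Starts came from a RefSeq promoter table with entries for Kdm2b, Kdm5b, Kdm5c and Kdm6a, and both gene ends were used for Kdm2a, Kdm5a and Kdm6b.

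**Figure D2:**
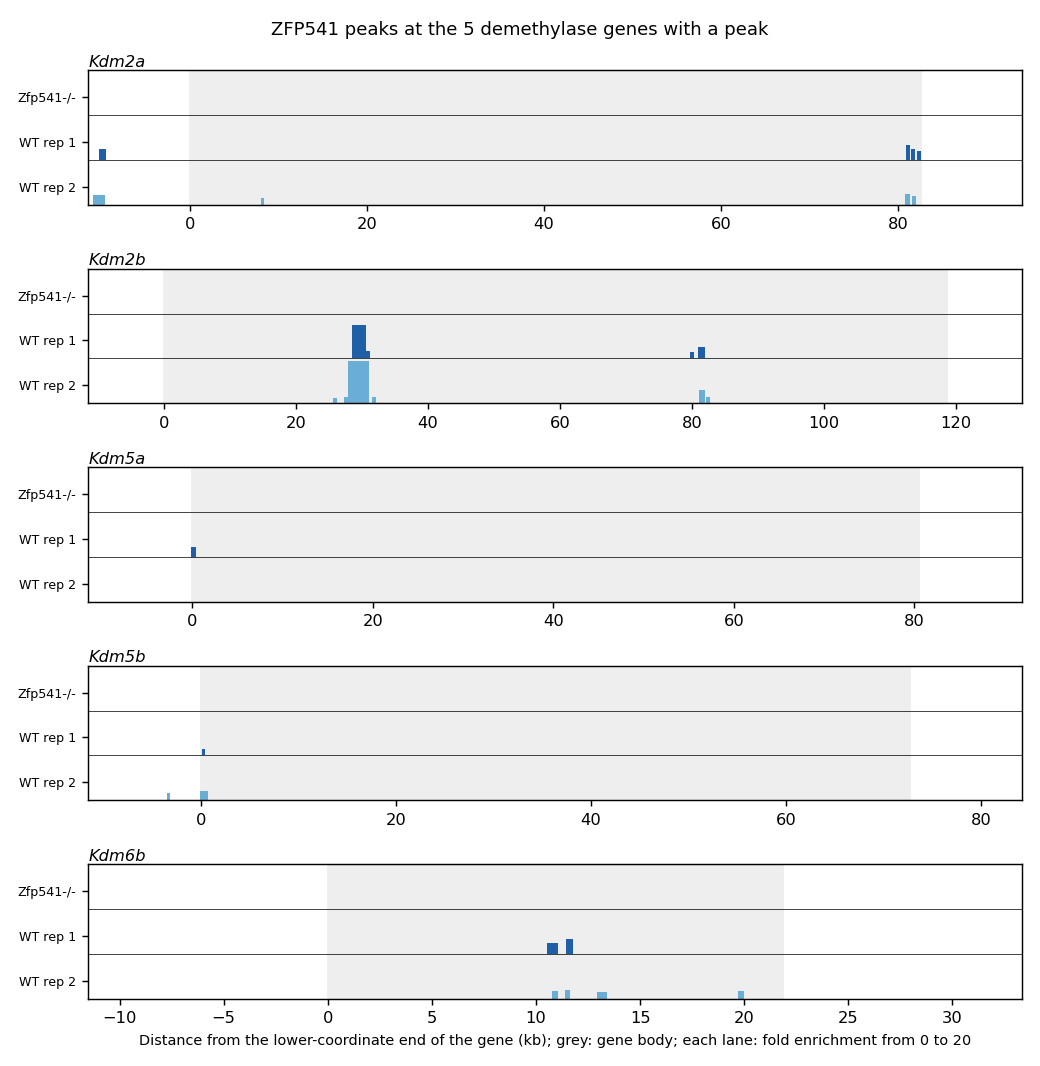
Peaks along the 5 genes with a peak in any library, drawn by distance from the lower-coordinate gene end (kb, horizontal axis), with the gene body in grey, 1 lane per library and bar height giving fold enrichment on a scale of 0 to 20. Narrow peaks are drawn wider than they are. The knockout lanes are empty, Kdm2b has 1 tall block in both WT lanes inside the gene, and the Kdm6b peaks found in both WT lanes lie in the middle of that gene, with a further one near its higher-coordinate end in replicate 2.

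Kdm2b carried the strongest ZFP541 signal of the 7 genes. KDM2B removes methyl groups from H3K36 and brings a variant Polycomb complex, PRC1.1, to CpG islands. The gene covers chromosome 5, 122870664 to 122989270 (mm10, minus strand, 118.6 kb). No knockout peak was present, and the strongest peak had a fold of 14.7 in WT replicate 1 (chromosome 5, 122899140 to 122901218, 2079 bp) and 18.6 in WT replicate 2 (122898596 to 122901652, 3057 bp). The −log10 q values were 49.7 and 56.3, and 98.6% and 99.6% of all peaks in the replicate 1 and replicate 2 lists had a lower fold. Joined, they formed a region of 3061 bp, a width reached by 167 (3.14%) of all shared regions, whose median width was 1061 bp. Among the 6392 genes with a shared region in the window, Kdm2b ranked 153 by its highest fold in replicate 1 and 52 in replicate 2. These ranks were not matched for gene length, and genes with overlapping windows can share a region.

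This peak did not lie at the outer end of Kdm2b but at internal starts. RefSeq lists 2 outer starts, at 122989099 and 122988507, and 2 internal starts 17 bp apart, at 122900367 and 122900350, the last of them 88749 bp from the first. KDM2B is known to have a short isoform transcribed from inside the gene that lacks the JmjC domain and keeps the CXXC domain. The WT replicate 1 summit was 2 bp from the start at 122900367 and the WT replicate 2 summit 34 bp from the start at 122900350, so the summits of the replicates were 53 bp apart. From the outer start at 122989099, the nearest summit was 16522 kb away in the knockout, 26.0 kb in WT replicate 1 (fold 2.58) and 35.9 kb in WT replicate 2 (fold 2.69). A 300 bp promoter window of an internal start and one of an outer start are shown to set the occupied sequence beside the unoccupied one of the same gene. Both come from RefSeq on GRCm38.p6, the assembly of mm10, and run 5′ to 3′ on the minus strand. They hold 250 bases before the start and 50 from it on, and capitals mark the GC box GGGCGG or its reverse complement CCGCCC.
Kdm2b internal start, chr5:122900301-122900600: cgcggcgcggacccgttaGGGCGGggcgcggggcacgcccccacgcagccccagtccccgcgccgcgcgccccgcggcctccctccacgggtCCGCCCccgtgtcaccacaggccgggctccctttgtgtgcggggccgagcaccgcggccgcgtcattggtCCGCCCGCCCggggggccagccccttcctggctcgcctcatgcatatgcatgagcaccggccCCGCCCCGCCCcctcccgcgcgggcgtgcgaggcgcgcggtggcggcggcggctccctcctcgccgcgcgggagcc
Kdm2b outer start, chr5:122989050-122989349: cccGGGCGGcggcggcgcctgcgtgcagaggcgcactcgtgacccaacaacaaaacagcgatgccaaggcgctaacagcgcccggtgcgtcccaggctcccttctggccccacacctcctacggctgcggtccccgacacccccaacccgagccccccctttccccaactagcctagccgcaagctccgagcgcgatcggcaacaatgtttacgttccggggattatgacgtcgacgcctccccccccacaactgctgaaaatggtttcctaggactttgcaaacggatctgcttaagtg

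The internal window was 81.7% G and C and held 49 CpG dinucleotides, more than 98.7% of the 21263 promoter windows of protein-coding genes. It held 6 matches to the GC box, counting overlapping ones and both strands, and both WT summits fell inside it, at base 232 in replicate 1 and base 285 in replicate 2, counted from its 5′ end. The outer window was 63.7% G and C with 28 CpG and 1 GC box. A GC box was found in 46.2% of all promoter windows. CCAAT, on either strand, occurred 1 time in the internal window and was not found in the outer one, and 38.2% of all windows held it. Neither window held the E-box CACGTG or the cyclic AMP response element TGACGTCA, which occurred in 7.84% and 2.23% of all windows.

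**Figure D3:**
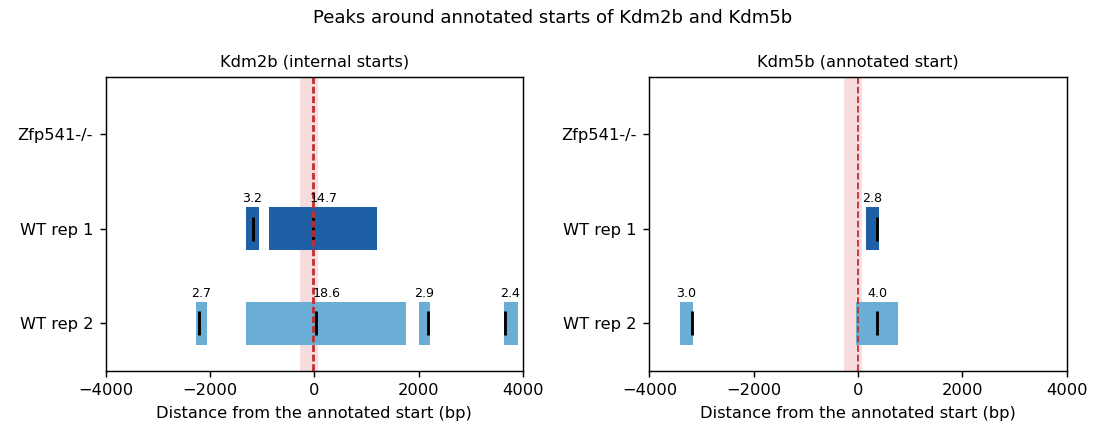
Peaks within 4 kb of the internal Kdm2b starts (left) and of the Kdm5b start (right), by distance from the annotated start in bp along the direction of transcription. Bars are peaks with their fold enrichment, black ticks are summits, dashed lines are annotated starts and the shaded band is the promoter window; at Kdm2b the WT summits with folds of 14.7 and 18.6 sit on the starts, and at Kdm5b those with folds of 2.83 and 4.03 lie downstream, with no knockout bar in either panel.

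A second Kdm2b region had its summits 52.1 kb from those at the internal starts, toward the outer ones. It had no knockout peak and folds of 5.15 in WT replicate 1 (122951633 to 122952686) and 5.68 in WT replicate 2 (122951665 to 122952694). The summits were 2 bp apart, and the one of replicate 1 was 56 bp past the higher-coordinate end of Gm33118, a long noncoding RNA gene annotated on the plus strand inside Kdm2b. Beside these 2 regions, replicate 1 had a peak of fold 3.21 that touched the wide replicate 2 peak at the internal starts and an unshared peak of fold 2.86. Replicate 2 had 4 unshared peaks with folds of 2.36 to 2.91. None of these 6 weaker peaks had a q-value of at most 0.05.

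Kdm2a, the paralogue of Kdm2b that encodes the other H3K36 demethylase with a CXXC domain, had weaker peaks. The gene covers chromosome 19, 4316144 to 4398721 (82.6 kb). No knockout peak was present, and the highest folds were 6.79 in WT replicate 1 and 4.77 in WT replicate 2, in 1 region at 4396982 to 4397557. The summits were 163 bp apart and lay 1420 and 1257 bp inside the higher-coordinate end of Kdm2a. A second region (4397744 to 4398198) had folds of 4.64 and 4.03, and its summits were 844 and 680 bp inside that end. Replicate 1 had 1 more peak there, of fold 3.93, 221 bp from the end. All of these peaks also lay in 9430078G10Rik, a protein-coding gene annotated on the plus strand that overlaps Kdm2a by 2758 bp, so they cannot be assigned to 1 of the 2 genes from position. A further region, with folds of 4.64 and 4.53, reached the flank 10 kb below Kdm2a, and its replicate 1 summit was 45 bp from the end of Grk2, a receptor kinase gene. The last peak was an unshared one of fold 3.02 inside the gene in replicate 2, with a q-value above 0.05.

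Of the KDM5 genes, which encode H3K4 demethylases, Kdm5b had a shared region, Kdm5a a peak in 1 replicate and Kdm5c no peak. KDM5B, which removes methyl groups from H3K4 at promoters, is encoded on chromosome 1, 134560178 to 134632878 (plus strand, 72.7 kb). At its start no knockout peak was present, and the folds were 2.83 in WT replicate 1 (134560337 to 134560572) and 4.03 in WT replicate 2 (134560132 to 134560949). Only the replicate 2 peak had a q-value of at most 0.05. The summits lay 356 and 368 bp downstream of the annotated start, 12 bp apart, inside a stretch of 1569 bp in which Kdm5b and the oppositely oriented Mgat4e overlap. These folds were higher than 6.29% and 49.8% of the peaks of their lists. Replicate 2 also had an unshared peak of fold 3.02 that lay 3190 bp upstream of the start, with a q-value above 0.05. The Kdm5b promoter window is shown because both summits lay downstream of it, while the replicate 2 peak began inside it and covered the start. It is printed 5′ to 3′ on the plus strand with GC boxes in capitals, and it was 54.7% G and C with 17 CpG and 1 GC box.
Kdm5b start, chr1:134559928-134560227: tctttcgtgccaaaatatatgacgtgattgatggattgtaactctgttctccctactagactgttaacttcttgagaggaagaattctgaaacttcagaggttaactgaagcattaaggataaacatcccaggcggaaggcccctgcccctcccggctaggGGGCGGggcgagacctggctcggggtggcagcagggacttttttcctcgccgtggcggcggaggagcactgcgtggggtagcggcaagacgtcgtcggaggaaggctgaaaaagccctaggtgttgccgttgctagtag

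Kdm5a encodes an H3K4 demethylase first known as a binding partner of the retinoblastoma protein. The gene covers chromosome 6, 120364099 to 120444574 (80.5 kb), and had neither a knockout peak nor a peak in WT replicate 2. In WT replicate 1 a peak of fold 4.29 (120364004 to 120364491, −log10 q 3.13) had its summit 68 bp inside the lower-coordinate gene end. It covered that end and also the higher-coordinate end of the overlapping Ccdc77, which is annotated on the minus strand and therefore starts there. The nearest replicate 2 peak was 18.2 kb from the gene body.

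Kdm6b, whose product removes H3K27 methylation in response to developmental and inflammatory signals, had its shared regions in the middle of the gene. It covers chromosome 11, 69398508 to 69420367 (21.9 kb). No knockout peak was present, and a region at 69409906 to 69410269 had folds of 6.43 in WT replicate 1 and 3.78 in WT replicate 2, with summits 146 bp apart. A neighbouring region at 69409055 to 69409563 had folds of 4.64 and 3.44, with summits 319 bp apart. All 4 summits were more than 10 kb from either gene end and all 4 peaks had q-values of at most 0.05. No start of Kdm6b was listed, so whether an internal start lies near these regions is unknown here. Replicate 2 had 2 further peaks, with folds of 3.18 and 3.44, that replicate 1 lacked, the second of them 2074 bp inside the higher-coordinate end.

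The X-linked Kdm5c and Kdm6a had no peak in any library, however weak. Kdm5c encodes an H3K4 demethylase (chromosome X, 152233198 to 152279102, 45.9 kb), and Kdm6a an H3K27 demethylase that works within the KMT2C and KMT2D complexes (chromosome X, 18160862 to 18279936, 119 kb). The knockout list had 9 peaks on the X chromosome, and the WT lists had 52 and 86. The peak nearest to Kdm5c was 17710 kb away in the knockout, 711 kb in WT replicate 1 and 88.2 kb in WT replicate 2, and for Kdm6a these distances were 58319, 2012 and 2012 kb. A shared region in the window was found at 35 of 963 X-linked protein-coding genes (3.63%) and at 30.9% of autosomal ones, and at 4.83% of the 290 X-linked genes within the length range of the 7. Of the 7 genes, a shared region was found at 4 of the 5 autosomal ones and at neither X-linked one. Read against 3.63%, the lack of a region at Kdm5c and Kdm6a is not a result about these 2 genes. The male-specific paralogues Kdm5d and Uty, on the Y chromosome, had no peak within the window in any library. The nearest WT peaks were 13315 and 6107 kb from Kdm5d and 13013 and 5805 kb from Uty. All 6392 protein-coding genes with a shared region in the window were autosomal (6357) or X-linked (35). No Y-linked gene had one, so its lack at Kdm5d and Uty is not a result about these 2 genes. The Kdm6a promoter window is shown as an unoccupied X-linked one with the same feature marked, 5′ to 3′ on the plus strand.
Kdm6a start, chrX:18162325-18162624: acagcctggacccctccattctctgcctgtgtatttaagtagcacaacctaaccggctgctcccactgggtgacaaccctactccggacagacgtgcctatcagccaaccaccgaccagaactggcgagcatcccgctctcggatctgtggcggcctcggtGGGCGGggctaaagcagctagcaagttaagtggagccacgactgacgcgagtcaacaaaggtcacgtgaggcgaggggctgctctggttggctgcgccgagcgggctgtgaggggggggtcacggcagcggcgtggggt

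The Kdm6a window was 63.0% G and C, held 21 CpG, 1 GC box and 1 E-box CACGTG, and had no peak. That of Kdm5c was 47.0% G and C with 13 CpG, 1 CCAAT and no GC box. Across all promoter windows, overlap with a shared ZFP541 region followed CpG content. It was 0.315% of 6035 windows with 0 to 4 CpG, 14.0% of 4426 windows with 10 to 19, 30.4% of 4358 windows with 20 to 29, 54.0% of 2202 windows with 30 to 39 and 81.4% of 1081 windows with 40 or more. Both internal Kdm2b windows, with 49 and 47 CpG, share most of their bases, were in the last class and were overlapped, and the outer ones, with 18 and 28 CpG, were not. The Kdm5b window, with 17 CpG, was overlapped as well, but only by the WT replicate 2 peak of its shared region. At 10 to 29 CpG, where the windows of Kdm5c and Kdm6a fall, a shared region overlapped 7 of 377 X-linked windows (1.86%) and 1938 of 8400 autosomal windows (23.1%). These shares are descriptions without a test, since windows of neighbouring starts overlap and are not independent.

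**Figure D4:**
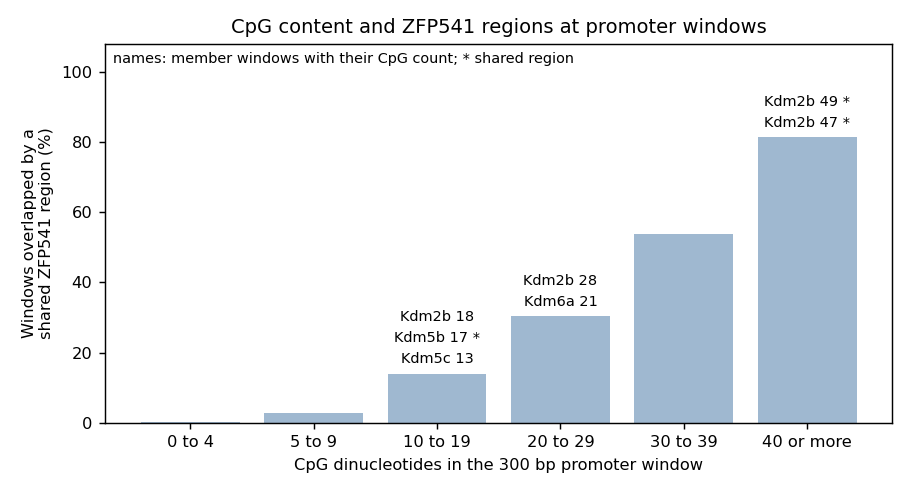
Share of 300 bp promoter windows overlapped by a shared ZFP541 region (percent, bars from 0) by the number of CpG dinucleotides in the window, over 21263 windows of protein-coding genes. Names mark the windows of the demethylase genes with their CpG counts, and an asterisk marks those overlapped by a shared region; the bars climb to 81.4% at 40 or more CpG, where the internal Kdm2b windows with 47 and 49 CpG lie.

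The replicates bound how finely these folds can be read. In WT replicate 1, 54.7% of all folds were whole multiples of 0.357, within 0.01 of a step, and in WT replicate 2, 64.6% were whole multiples of 0.336. Of the peaks at the 7 genes, 9 of 12 and 6 of 16 were such multiples, so that the Kdm2a peaks of fold 3.93 and 4.64 in replicate 1 stood at 11 and 13 steps. The fold of 4.64 alone recurred at 275 replicate 1 peaks. Over all 5325 shared regions, the log2 ratio of replicate 2 to replicate 1 fold had a median of 0.10 and an SD of 0.47, and 90% of regions lay between -0.65 and 0.90. At the 8 regions of the 7 genes it ran from -0.77, at the stronger Kdm6b region, to 0.51 at Kdm5b. Only that Kdm6b region was outside the central range. By highest fold, Kdm2b stood above Kdm2a, Kdm5b and Kdm6b in both replicates. Kdm2a was also above Kdm5b and Kdm6b in both, but not clearly. In replicate 1 Kdm2a stood at 19 steps and Kdm6b at 18. In replicate 2 the folds of Kdm2a and Kdm5b were 4.77 and 4.03, a smaller margin than the 6.79 and 2.83 of replicate 1. The SD of 0.47 is of the ratio between replicates and does not measure differences between genes within 1 library. Kdm6b was above Kdm5b in replicate 1 (6.43 and 2.83) and below it in replicate 2 (3.78 and 4.03), so those genes could not be ordered.

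**Figure D5:**
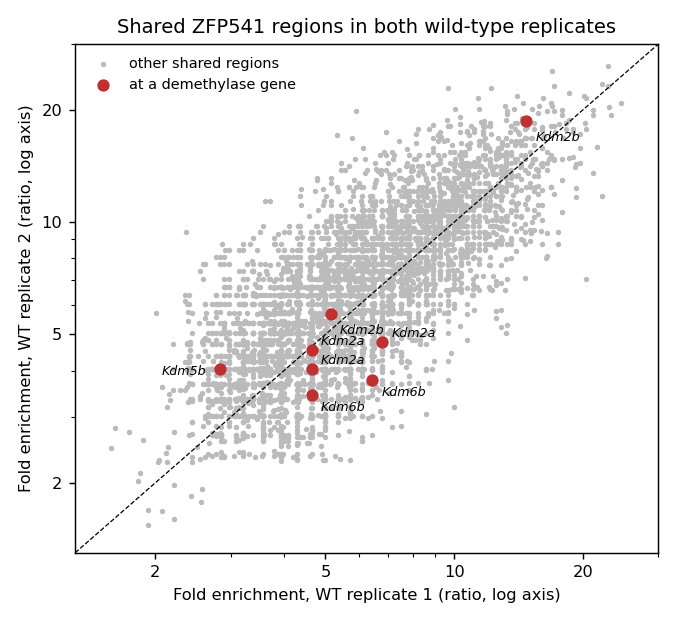
Fold enrichment of shared ZFP541 regions in WT replicate 2 (vertical) against WT replicate 1 (horizontal), both ratios on log axes, with the line of equality dashed. The 8 regions at demethylase genes are red and the others grey; 1 Kdm2b region, at 14.7 and 18.6, lies among the highest, and the other 7 lie between 2.83 and 6.79 on both axes.

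Other genes of the same pathways were counted in the same way, from lists chosen with earlier results of these data known. No gene of these lists had a knockout peak in its window, where 0.34% of all protein-coding genes had one. Counts at a start stand beside 21.4% of all protein-coding genes. The lists were not matched to other genes in length or CpG content. Of 15 other demethylase genes, mostly those acting on H3K9, 8 had a shared region within 1 kb of a start, led by Kdm4b, an H3K9 and H3K36 demethylase gene (folds of 14.6 and 17.8), and Phf2 (13.2 and 9.54). Genes of enzymes that write the marks were counted next. All 7 H3K4 methyltransferase genes had a shared region in the window, against 29.3% of all protein-coding genes and 36.5% of those in the length range of the 7 demethylase genes, and 6 had one at a start, led by Kmt2c (13.6 and 8.02) and Kmt2d (9.56 and 9.40). Of 9 H3K27 and H3K36 methyltransferase genes, 8 had one at a start, led by Nsd2, which encodes a writer of H3K36 dimethylation (14.0 and 18.4), and Smyd2 (9.53 and 9.01).

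Genes of partner proteins were occupied in part. Of 9 genes of the KDM2B complex PRC1.1 and related variants, 5 had a shared region at a start, led by Rybp (15.7 and 19.6) and the E3 ligase gene Rnf2 (7.36 and 11.4). The other 4 (Pcgf1, Bcor, Bcorl1 and Usp7) had none in the window, where 29.3% of all protein-coding genes and 3.63% of X-linked ones, such as Bcor, had one. Of 7 genes of KDM6A partners, 3 had one at a start, led by Wdr5 (8.94 and 11.4) and Paxip1 (8.93 and 8.39). Of 9 genes of SIN3 and HDAC proteins that work with KDM5 enzymes, 4 had one at a start, led by Rbbp4 (6.92 and 6.71) and Sin3b (5.24 and 7.38). These counts stand beside the 21.4% of all protein-coding genes given above, and they describe the lists without a test.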

How the data were processed

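ZFP541 ChIP-seq of pachytene and diplotene spermatocytes was analysed from 3 deposited peak lists, 1 per library (1 Zfp541-/-, 2 WT), so replicates were not pooled. The submitters' processing notes name the peak caller MACS2 2.2.6, the aligner Bowtie2 2.3.5, the mm10 build, and deepTools 3.5.0, SAMtools 1.10, cutadapt 2.6 and Picard. Which control and threshold the calls used is not given in the sources used here. Columns of the deposited lists hold the fold enrichment (a ratio), −log10 p-values and −log10 q-values, the summit offset, and a score equal to the whole part of 10 times the −log10 q, which was not used. Read depth is unknown, so no interval that needs it is given.

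Gene positions are RefSeq's on GRCm38.p6, which mm10 shares; entries before 3 Mb on autosomes and X were left out as scaffold coordinates. Peaks sharing 1 bp were joined across WT replicates and regions with a knockout peak removed. A gene was counted if a region overlapped its body or 10 kb around it, or lay within 1 kb of a start; starts came from RefSeq promoter windows, and both gene ends were used for genes without one. All 7 genes are named, and from each other list the 2 genes whose region at a start ranked highest by fold, as the mean percentile over both WT lists. The members and lists were chosen with earlier results of these data known. CpG classes, the replicate ratios and the nearest peaks were added after the peaks had been seen. The overlap steps were tested on simulated data. Python 3.11.15, numpy 2.4.6, pandas 2.3.3 and matplotlib 3.10.9 were used.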

Additional observations from a re-analysis of the deposited data

How the results depend on the processing

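No paired analysis was possible because the knockout has 1 library and no result comes from a test. Stricter peak thresholds moved the counts most. At a −log10 q of at least 5, peaks were left at 3 genes in WT replicate 1 (4 peaks) and at 2 in WT replicate 2 (3 peaks), 2 genes (Kdm2a and Kdm2b) had a shared region in the window and 1 (Kdm2b) at a start. At 10, only Kdm2b was left, with 1 peak in each replicate, as 1 gene by either count. At 1.3, replicate 2 had 10 peaks, and Kdm5b had no shared region. A reciprocal overlap of at least 50% left 3 genes (Kdm2a, Kdm2b and Kdm6b) with a region in the window and 1, Kdm2b, at a start. Without replicate 1 or without replicate 2, 4 and 5 genes had a region in the window and 3 and 4 at a start, Kdm5a being the gene added by replicate 1 peaks alone. With 500 bp around a start Kdm2a was not counted, and with gene ends in place of promoter starts Kdm2b was not; that alternative and the knockout list's lowest −log10 p as a minimum, under which Kdm5b was not counted, were chosen after seeing the data. Windows without flanks or with 5 kb, summit overlap and keeping regions with a knockout peak gave 4 genes in the window, as reported.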

Other observations

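Kdm2b was not alone in having a shared region at an internal start. Among 1032 protein-coding genes with promoter windows whose starts lie at least 5 kb apart, 348 had a shared ZFP541 region within 1 kb of a start. The region was at internal starts without one at the outermost start or starts within 5 kb of it in 83 genes (23.9%), Kdm2b among them, at the outer ones without an internal one in 241 (69.3%), and at both in 24 (6.90%). These counts were made after the Kdm2b peak had been seen.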
